A study of Drosophila melanogaster with 2 samples.

Results

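The danr regions on the X chromosome are the 533 places on X at which the fusion protein danr-eGFP was found by chromatin immunoprecipitation and sequencing in the list made from both replicates. They are 20.1% of the 2653 regions of the genome. They were chosen by chromosome alone: overlapping rows of the deposited thresholded peak list were merged, the row of highest signal gave the summit, and every merged region on X was kept. The material was whole Drosophila melanogaster embryos aged 0 to 24 h of a strain carrying danr tagged with GFP, precipitated with an antibody against GFP. The labels give 1 group with 2 biological replicates. They give no sex for the embryos, and whole embryos hold many cell types, so occupancy in few cells and weak occupancy in many cannot be told apart. The X regions were set against the 1612 regions of 3 autosomal arms, which are 479 on 2L, 558 on 3L and 575 on 3R, called the arms here.

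danr (distal antenna-related) codes for a nuclear factor that binds DNA through a pipsqueak motif and is known with its paralog dan for the specification of the antenna and for work in the eye and nervous system. The X chromosome of the fly is present in a single copy in males, and its transcription is raised there by the MSL complex, which carries the roX RNAs. It also holds a number of well-known genes, among them the sex-determination switch Sxl, the polyhomeotic genes, elav, Notch and kirre.

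Sequences of 101 bases centred on the summit are shown for the strongest X regions with little annotated UTR in the window, because these windows carry the highest danr signals of the chromosome. They are plus-strand dm6 sequence, 5′ to 3′, and capitals mark matches, on either strand, to the TATA-type letters TATAAA, to the E-box form CATATG or to ACAAT.
Ugalt, chrX:2703832-2703932: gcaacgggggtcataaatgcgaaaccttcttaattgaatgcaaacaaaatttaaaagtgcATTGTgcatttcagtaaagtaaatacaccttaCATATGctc
ph-p, chrX:2137284-2137384: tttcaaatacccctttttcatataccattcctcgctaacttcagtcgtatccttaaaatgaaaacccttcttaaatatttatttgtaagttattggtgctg
lncRNA:CR44619, chrX:12751380-12751480: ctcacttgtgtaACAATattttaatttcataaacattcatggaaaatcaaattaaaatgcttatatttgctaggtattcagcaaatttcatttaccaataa
CG32772, chrX:4910308-4910408: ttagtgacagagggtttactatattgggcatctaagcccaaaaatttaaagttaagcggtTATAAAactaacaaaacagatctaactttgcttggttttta
Tlk, chrX:3742178-3742278: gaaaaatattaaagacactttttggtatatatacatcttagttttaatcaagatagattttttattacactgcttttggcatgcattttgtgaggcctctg
CG3726, chrX:5918866-5918966: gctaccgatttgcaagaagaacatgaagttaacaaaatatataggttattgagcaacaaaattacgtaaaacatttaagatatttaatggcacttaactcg
lncRNA:CR44619, chrX:12752317-12752417: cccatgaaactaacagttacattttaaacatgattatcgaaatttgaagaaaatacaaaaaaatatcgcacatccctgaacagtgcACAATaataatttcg
Atf3, chrX:1275445-1275545: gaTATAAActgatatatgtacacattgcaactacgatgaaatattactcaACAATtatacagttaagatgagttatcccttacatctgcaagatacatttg
All 8 windows are rich in A and T, between 65.3% in the Ugalt window and 76.2% in the first lncRNA:CR44619 window. The whole of X is 57.5% A+T. None of the 10 motifs searched was in all of them.

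The strongest X region lay at Ugalt, the gene of a UDP-galactose transporter. Its signal was 1356 for both replicates together, 701 in replicate 1 and 648 in replicate 2. Signal is the authors' own enrichment value of a peak, and over the 519 X regions with a ranked peak in each replicate the joint signal was 1.00 times the sum of the replicates' signals in the median (deciles 0.939 and 1.05). The second lay at ph-p, a subunit of Polycomb repressive complex 1, with 937 jointly, 443 in replicate 1 and 502 in replicate 2. Another summit at ph-p, 472 bp from a start site, had 543 jointly, 331 in replicate 1 and 215 in replicate 2. Both ph-p summits lie inside the gene and near a start site of one of its transcripts.

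The third region lay at lncRNA:CR44619, inside the overlapping gene lncRNA:Vinr, with a signal of 677 jointly, 362 in replicate 1 and 323 in replicate 2. Inside introns, the strongest summits were those of CG32772 at 641 and of Tlk, a kinase of chromatin assembly, at 544. An intron summit of CG3726 followed at 487. The next were promoter summits at MFS10 (430), lncRNA:CR44619 (429) and Atf3, a bZIP transcription factor (412). The 15 strongest were completed by intron summits of the transcription factor gene NFAT at 411 and of norpA, the phospholipase C of phototransduction, at 408, a summit at lncRNA:CR44026 inside baz at 402, Gapdh2, a glycolytic enzyme, at 396, and TRAM at 362. Gapdh2 stands apart among them: replicate 1 had 282 there, while replicate 2 had no overlapping ranked peak and the conservative list leaves the region out.

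X regions were about as strong as those of the arms. The median width was 344 bp on X and on each arm. Many X regions had exactly this width, so the equal medians say little about width. The median signal was 85.6 on X and 82.1 on the arms. Above the common median lay 52.7% of X regions and 49.1% of arm regions, a difference that did not pass the threshold (two-sided Fisher's exact test, adjusted p = 0.161). X held 2 of the 10 strongest regions of the series and 20 of the 100 strongest. The lowest signals on X were 29.8 in an intron of dlg1, which encodes a junction scaffold protein, 34.7 inside Bx with CG6481 as the nearest start, and 41.7 in an intron of Atf3.

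Over their whole length, X held more summits per Mb than the arms. X held 22.6 summits per Mb and the arms 19.3, a ratio of 1.18 (95% exact interval 1.06 to 1.30; two-sided exact binomial test, adjusted p = 0.00373). In replicate 1 alone the densities were 14.4 per Mb on X and 12 on the arms, and in replicate 2 alone 13.6 on X and 11.4 on the arms. Against single arms, the ratio was 1.26 for 3R, 1.14 for 3L and 1.11 for 2L, and only the first of these passed the threshold. The ratio includes nearly empty stretches near the centromere, which are longer on 3L and 3R than on X. Without the run of 1 Mb bins with at most 2 summits at that side, X held 24.1 summits per Mb and the arms 22.0 (21.7 on 2L, 24.2 on 3L and 20.4 on 3R), a ratio of 1.10 (95% exact interval 0.993 to 1.21) that did not pass (exact binomial test, adjusted p = 0.0861). Without an equal 5 Mb at that side of X and of each arm the ratio was 1.19 and passed (exact binomial test, adjusted p = 0.00373). Both settings were added after the data were seen. Protein-coding genes were sparser on X, with 93.3 per Mb, than on the arms, with 105 per Mb. P-values here treat each region as an independent draw, and because summits cluster they may be too small.

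The density of all ranked peaks, most of which lie below the limit on reproducibility, did not follow that order. X held 1008 ranked peaks per Mb and the arms 1015. Past the limit were 574 of 23742 ranked peaks of X, or 2.42%, and 1762 of 84997 of the arms, or 2.07% (two-sided Fisher's exact test, adjusted p = 0.00373). The share on X was also the higher in each replicate: 3.10% on X and 2.35% on the arms in replicate 1, and 2.29% on X and 1.66% on the arms in replicate 2. In these lists, unlike the joint one, X also held fewer ranked peaks per Mb, so its shares rest on a smaller base. Replicate 1 had 490 per Mb on X and 560 on the arms, and replicate 2 had 673 on X and 747 on the arms. The reason for the difference was not tested.

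**Figure D1:**
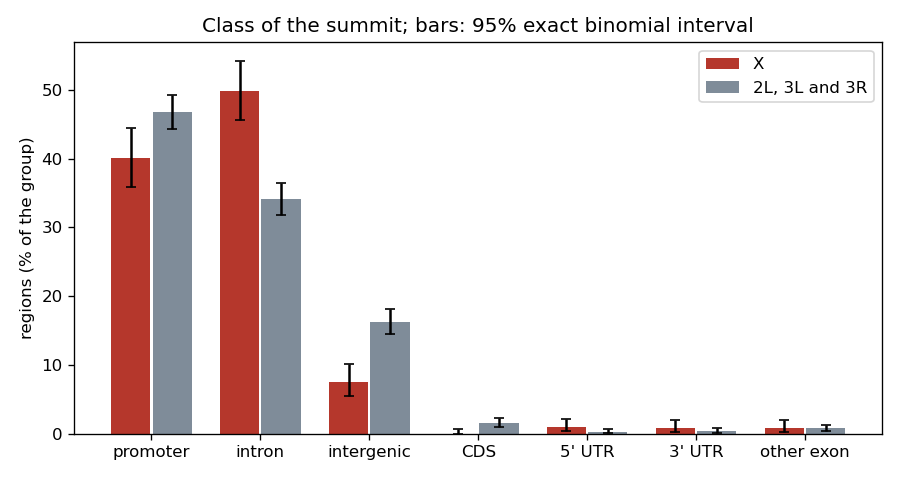
Share of regions (y axis, percent) by the class of the summit (x axis), for X and for 2L, 3L and 3R together, with 95% exact binomial intervals. X has 49.9% of its summits in introns against 34.1% on the arms, and 7.5% in intergenic sequence against 16.2%.

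X regions lay more often in introns, and less often in intergenic sequence and at promoters, than arm regions. Introns held 266 X summits, or 49.9% (95% exact interval 45.6 to 54.2%), and 550 arm summits, or 34.1% (two-sided Fisher's exact test, adjusted p = 1.77e-09). Replicate 1 alone gave 45.9% on X and 33.8% on the arms, and replicate 2 alone 46.6% on X and 30.2% on the arms. Promoters, which are the windows reaching 500 bp to each side of a start site, held 214 X summits, or 40.2%, and 754 arm summits, or 46.8% (Fisher's exact test, adjusted p = 0.0134). Intergenic sequence held 40 X summits, or 7.5%, and 261 arm summits, or 16.2% (Fisher's exact test, adjusted p = 1.08e-06).

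Coding sequence held 0 of 533 X summits, which allows a share of up to 0.563% by the limit of 3 counts and 0.690% by the exact 95% interval, and 25 arm summits, or 1.55% (Fisher's exact test, adjusted p = 0.00373). That count rests on the weaker arm regions, since among regions above the median signal the arms' share exceeded that of X by 0.126 percentage points, which did not pass the threshold. The remaining X summits were 5 in 5' UTRs, 4 in 3' UTRs and 4 in other exons. Among the promoter, intron and intergenic summits of X, those at promoters were the strongest, with a median signal of 95.9. The medians were 77.6 in introns and 66.6 in intergenic sequence. The few UTR summits of X had higher medians, 125 in 5' UTRs and 113 in 3' UTRs. On the arms the medians were 91.3 at promoters, 77.3 in introns and 78.2 in intergenic sequence.

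The sequence available in each class also differs between X and the arms. Introns make up 43.5% of X and 39.2% of the arms. Per Mb of intron sequence X held 26.0 summits and the arms 16.8, a ratio of 1.55 (95% exact interval 1.34 to 1.80; exact binomial test, adjusted p = 3.83e-08 over 4 classes). Per Mb of promoter sequence X held 72.0 and the arms 66.4, a ratio of 1.09 (exact binomial test, adjusted p = 0.303), so the lower promoter share of X did not go with a lower promoter density. Per Mb of intergenic sequence X held 7.63 and the arms 11.2 (exact binomial test, adjusted p = 0.0280), a ratio of 0.681. The ratio was 0.677 in replicate 1, 0.643 in replicate 2 and 0.741 in the conservative list, and none of these 3 passed. Ranked peaks below the limit also lay more often in introns on X, but by less: 42.3% on X and 36.9% on the arms. In intergenic sequence lay 18.2% of such peaks on X and 24.4% on the arms, a gap of -6.15 percentage points beside -8.69 among the regions. These densities were added after the class shares were seen.

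**Figure D2:**
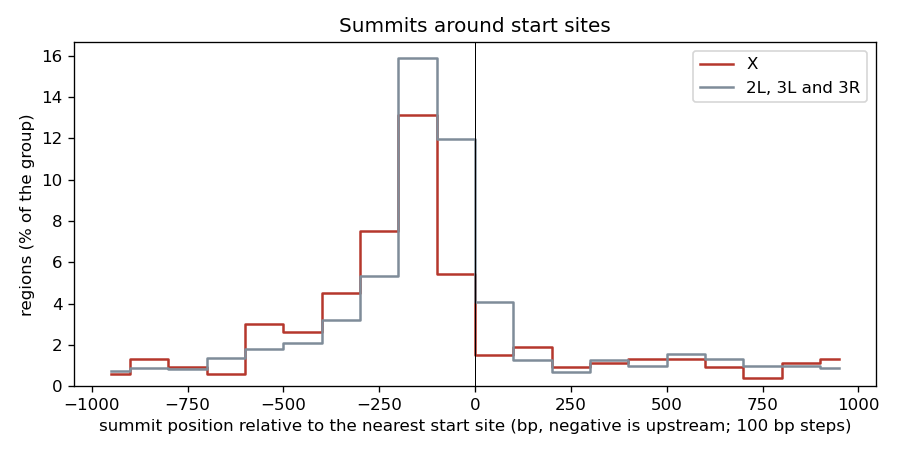
Summits by position relative to the nearest annotated start site (x axis, bp, 100 bp steps, negative is upstream) as a percentage of all regions (y axis) of X and of the arms. In the 100 bp just upstream lie 5.44% of X regions and 12% of arm regions, and in the 100 bp just downstream 1.5% of X regions and 4.09% of arm regions.

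Around start sites, X summits lay farther out than arm summits. The median distance to the nearest start was 927 bp on X and 592.5 bp on the arms. Within 100 bp lay 38 X summits, or 7.13%, and 259 arm summits, or 16.1% (two-sided Fisher's exact test, adjusted p = 2.66e-07 over 4 tests added after the data were seen). The difference was as large in each replicate: 5.59% on X and 15.1% on the arms in replicate 1, and 7.81% on X and 17.7% on the arms in replicate 2. Among promoter summits the median position was -162 bp on X and -115.5 bp on the arms, where negative is upstream. Upstream of their start were 82.7% of X promoter summits and 82.4% of arm promoter summits.

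Promoters with start sites on both strands, as at divergent gene pairs, were less frequent among the X promoter summits. Starts on both strands lay near 51 of 214 X promoter summits, or 23.8%, and 315 of 754 arm promoter summits, or 41.8% (two-sided Fisher's exact test, adjusted p = 2.86e-06). Replicate 1 gave 20% on X and 38.2% on the arms, and replicate 2 gave 22.1% on X and 49.4% on the arms. Among all annotated start sites the share was 22.2% on X and 25.2% on the arms. These background shares are counted per start site, while the shares of danr summits are counted around summits, most of which lie upstream of a start. The 2 kinds of share are therefore not measured alike, and their levels cannot be compared directly.

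The intron summits of X lay in 151 host genes, of which a few held many. Of the 266 summits, 21 hosts with 3 or more held 101 of them, or 38%. On the arms 550 summits lay in 381 host genes, and 37 hosts with 3 or more held 130, or 23.6%. Hosts longer than 20 kb held 72.2% of the intron summits on X and 60.4% on the arms, and 9.02% of X protein-coding genes and 7.03% of arm genes exceed that length. The gene shares count genes and not intron sequence, of which long genes can hold more, so they are no base for the summit shares. The part of intron sequence in such genes was not measured, and these shares were not tested. The median host gene was 23.6 kb on X and 22.2 kb on the arms.

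**Figure D3:**
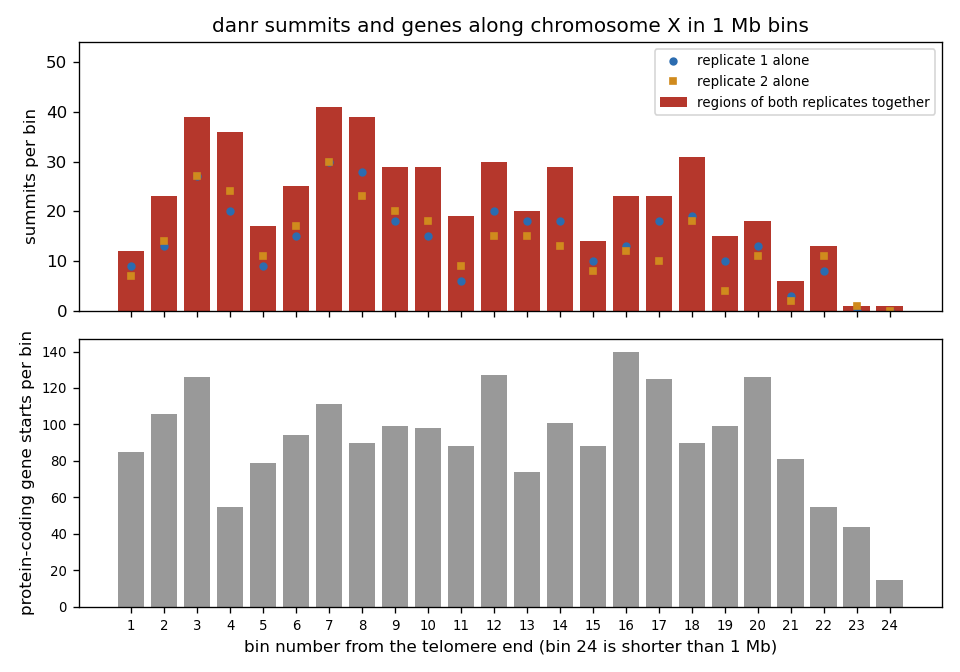
Summits (upper y axis) and protein-coding gene starts (lower y axis) in each 1 Mb bin of X, numbered from the telomere end. Bars give both replicates together and points give each replicate's own list. Bin 7 is highest with 41 summits, and bins 23 and 24 at the centromere side have 1 each.

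Along the chromosome the summits were uneven. The 23 full 1 Mb bins held 23.1 ± 10.6 summits (SD over bins), from 1 in bin 23 to 41 in bin 7. The variance was 4.82 times the mean on X and 5.39 times on the arms, whose 83 bins held 0 to 43. No full bin of X was empty, and 6 arm bins were. Bin counts of the replicates' own lists followed each other over the 23 bins (Pearson r 0.91, Spearman rho 0.87), which share the chromosome and its gene content. Bin counts followed the number of protein-coding genes less closely, with r 0.42 and rho 0.47 on X and r 0.66 and rho 0.50 over the arm bins.

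The densest bins did not hold the most genes. Bin 7 held 41 summits and 111 genes, and its strongest regions were at pigs (286, in a 3' UTR and inside APC7), in an intron of the ceramide synthase gene schlank (243) and at the promoter of Fum1, a fumarase (229). Bin 3 held 126 genes, near the highest count of 140, and 39 summits, those of Ugalt and ph-p among them. Bin 8 also held 39 summits, beside 90 genes, with 320 at lncRNA:CR43287 in an intron of CHES-1-like, 249 at CBP and 224 at Dok. Bin 4 held 36 summits beside only 55 genes, or 65.5 summits per 100 genes, while bin 16 held 23 summits beside 140 genes, or 16.4 per 100.

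The end of X near the centromere held few regions. Its last 2 Mb carried 4 summits, or 2 per Mb, against 24.6 per Mb elsewhere on X. The corresponding 2 Mb of the arms were as sparse, with 6 summits on 2L, 2 on 3L and 0 on 3R. The longest stretch of X without a summit runs over 1120 kb, from 21713623 to 22833743, with 38 protein-coding genes and 474 ranked peaks below the limit. Away from the centromere side, 347 kb from 19889595 to 20236345 with 38 genes held none, nor did 344 kb from 12756087 to 13100156 with 28 genes. This last stretch holds the neuronal RNA-binding protein gene fne and begins at the edge of the strong lncRNA:CR44619 cluster.

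A neighbouring summit was more frequent on X than on the arms pooled. Another summit lay within 10 kb for 319 X regions, or 59.8%, and for 866 arm regions, or 53.7% (two-sided Fisher's exact test, adjusted p = 0.0208). The median gap to the nearest summit was 6685 bp on X and 8519 bp on the arms, which is 0.151 of the mean spacing on X and 0.164 on the arms. The arm 2L was near X, with 57.6% of regions having a neighbour and a gap of 0.157 of the mean spacing, and in the conservative list its gap of 0.136 was under the 0.140 of X. Chains of summits at most 10 kb apart numbered 332 on X: 214 single summits, 78 pairs and 40 chains of 3 or more. These 40 held 163 summits, or 30.6% of X regions, against 24.2% of arm regions in such chains. With a distance of 20 kb the difference in neighbours was 4.71 percentage points and did not pass.

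**Figure D4:**
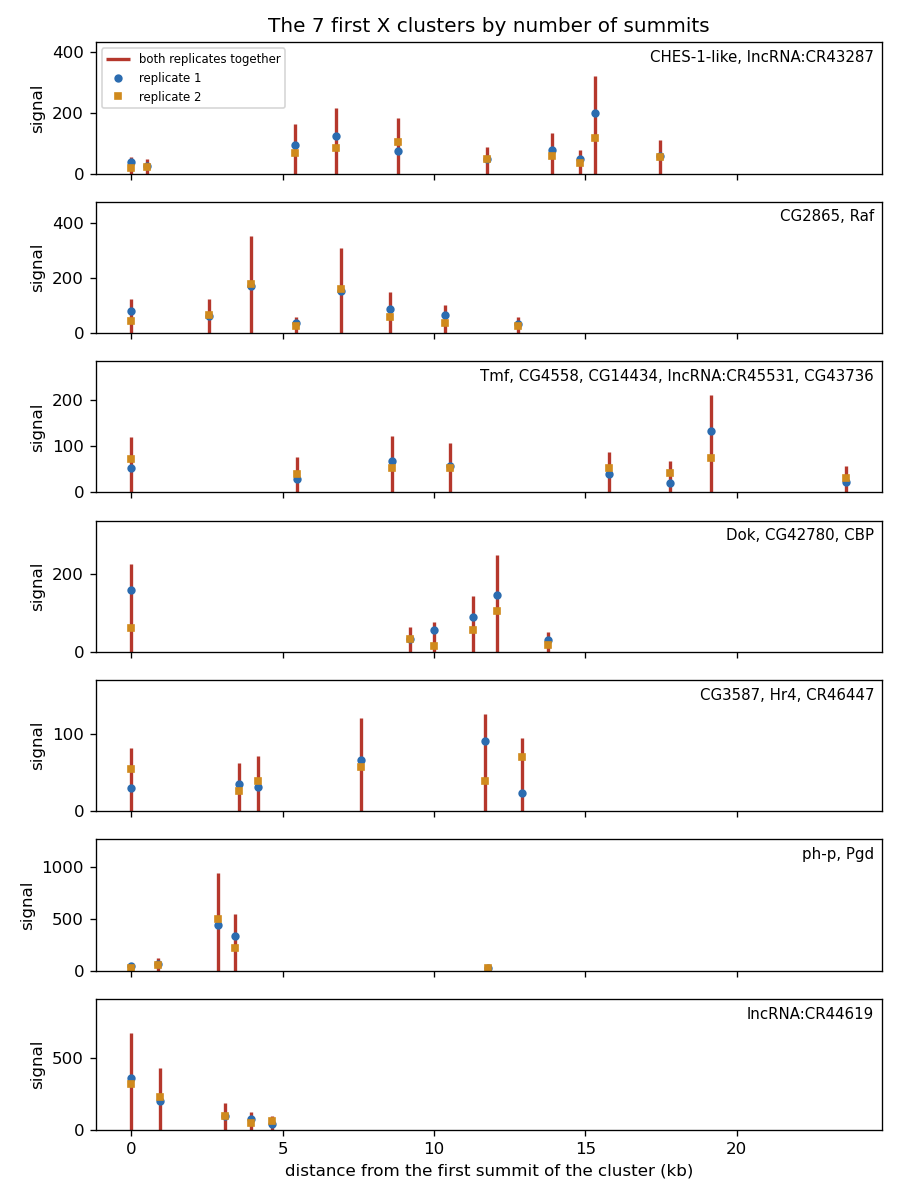
The 7 X clusters listed first by number of summits, one panel each, with the distance from the first summit of the cluster (x axis, kb) and the signal (y axis). Bars give both replicates together and points give each replicate. The CHES-1-like cluster has 10 summits and the lncRNA:CR44619 cluster 5, each of these 5 present in both replicates' lists.

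The largest cluster lay over CHES-1-like, a forkhead gene, with 10 summits in 17468 bp, of which 8 were in introns and 2 at promoters. Signals ran from 48.1 to 320 with a median of 122, and 8 of the 10 were in both replicates' lists. The strongest summit, nearest to lncRNA:CR43287 inside CHES-1-like, had 199 in replicate 1 and 118 in replicate 2. The next cluster held 8 summits in 12785 bp over CG2865 and Raf, the kinase that carries Ras signals to the MAP kinases. Its 2 strongest summits, inside Raf, had 354 jointly, with 173 in replicate 1 and 178 in replicate 2, and 311 jointly, with 153 in replicate 1 and 161 in replicate 2.

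A further 8 summits in 23620 bp ran from Tmf over CG4558, CG14434 and lncRNA:CR45531 to CG43736, with 5 of them at promoters and a highest signal of 210. Clusters of 6 lay at Dok, CG42780 and CBP, with signals of 50.1 to 249, and at CG3587, Hr4 and CR46447, with 62.6 to 126. Hr4 encodes a nuclear receptor. The first summit of Dok was unequal between replicates, with 159 in replicate 1 and 61.4 in replicate 2. The ph-p cluster continued to Pgd, an enzyme of the pentose phosphate pathway, where the fifth summit had a signal of 56.7. At lncRNA:CR44619 5 summits within 4657 bp had joint signals of 677, 429, 192, 128 and 99.5, decreasing in the order of the chromosome. Replicate 1 decreased in the same order, while replicate 2 had 52.0 at the fourth summit and 61.4 at the fifth.

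Counted from 5 kb upstream to the gene end, kirre and CG1677 had the most summits, with 11 each. Those of kirre, an immunoglobulin-type adhesion gene of myoblast fusion, were spread over 354 kb of a gene of 394 kb and had signals of 57.7 to 158. Their nearest start site was that of kirre for 4 of the 11, and the 3 at promoters lay at starts of Syx4 and CG3588, so they cannot all be assigned to kirre. None lay within 1000 bp of a kirre start site, the nearest being 2322 bp away. Those of CG1677 lie in a gene of 125 kb that contains other genes, Dok and CBP among them, so they cannot be assigned to 1 gene. CHES-1-like had 10, Tlk 9 (54 to 544), and Raf and Hr4 8 each. All 9 summits of Tlk were in introns.

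By gene, X did not differ detectably from the arms. A summit lay within 1000 bp of a start site for 288 of 2196 protein-coding genes of X, or 13.1%, and for 1209 of 8817 of the arms, or 13.7% (two-sided Fisher's exact test, adjusted p = 0.487). Such genes are called bound here, a statement on position only. Bound X genes were longer than the others, with medians of 4775 bp and 2344.5 bp. Of 483 non-coding RNA genes of X 33 were bound, or 6.83%, as were 2 of 24 tRNA genes, or 8.33%. Bound on the arms were 126 of 2190 non-coding RNA genes, or 5.75%, and 9 of 168 tRNA genes, or 5.36%. Both arm shares lie inside the exact intervals of the X shares, 4.75 to 9.46% for non-coding RNA and 1.03 to 27.0% for tRNA genes. These differences were not tested.

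All 3 X genes of the Polycomb and trithorax list were bound, beside 13.1% of all X protein-coding genes. They were ph-p (937), its neighbour and paralog ph-d (220, with 108 in replicate 1 and 114 in replicate 2), and fs(1)h, a BET bromodomain protein, whose signal of 44.6 was under the lowest decile of X regions (53.4) and whose region was absent from both replicates' thresholded lists. Of 12 such genes on the arms 3 were bound, or 25%. Of 14 ribosomal protein genes of X 8 were bound, or 57.1%, and of 54 on the arms 22, or 40.7%. The signals of these 8 ran from 52.5 to 108, and the strongest were RpS28b at 108, where the nearest start is that of l(1)G0320, RpL17 at 97.2, RpL22 at 92.2 and RpS15Aa at 75.3. Another summit, 45 bp from a start of RpS28b, had a signal of 88.2. Counted by the strongest region of each gene, only RpS28b of the 8 was in both replicates' thresholded lists, 4 were in 1 of them and 3 in neither. Of 11 mitochondrial ribosomal protein genes of X (mRpL3, mRpL14, mRpL16, mRpL22, mRpL30, mRpL33, mRpL38, mRpL49, mRpS14, mRpS25 and mRpS30) 0 were bound, and of 50 on the arms 12 were. The lists were chosen with results of these data known, so their counts are a description.

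Among 4 dosage compensation genes, Sxl alone was bound, with 111 jointly, 72.4 in replicate 1 and 39.6 in replicate 2. The roX genes, whose RNAs guide the MSL complex, had their nearest summits 5970 bp (roX1) and 1312 bp (roX2) from a start, and mof, its acetyltransferase, 19325 bp. Of 9 sex-determination genes Sxl was again the bound one, and hop, otu, ovo, run, sc, sisA, snf and upd1 were not. The segmentation and head genes btd, gt, oc and run were not bound, nor were N, ac, ase, dx, l(1)sc, pcx and sc of the proneural and Notch list. Of all X protein-coding genes 13.1% were bound, and lists this small cannot show a lower share. With 0 of 4 and 0 of 7 bound, the exact intervals reach 60.2% and 41.0%. On the arms 0 of 6 dosage compensation and 2 of 7 sex-determination genes were bound. There, 1 of 15 segmentation and head genes and 4 of 16 proneural and Notch genes were bound. N, the Notch receptor, had its nearest summit 27679 bp from a start. That summit lay in an intron of N, with a signal of 200, and was in both replicates' lists.

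Of 15 neuronal genes of X 2 were bound, or 13.3%, a share near the 13.1% of all X protein-coding genes. Of 9 on the arms 0 were bound. The 2 on X were elav, a neuronal RNA-binding protein gene, and dnc, a cAMP phosphodiesterase gene. The summit of elav, inside arg, had 361 jointly, with 193 in replicate 1 and 174 in replicate 2. That of dnc had 274, with 124 in replicate 1 and 148 in replicate 2. Of 12 signalling genes of X 3 were bound, and of 15 on the arms 4 were. The 3 on X were sgg, the GSK-3 kinase, at 186, Raf at 125 and dome, the JAK/STAT receptor, at 46.9. The dome region was in neither replicate's thresholded list nor in the conservative list. The unbound ones on X were arm, csw, dsh, hep, sev, sog, upd1, upd2 and upd3. Of 7 muscle and adhesion genes Act5C, a cytoplasmic actin, was bound at 143. That summit lay 676 bp from a start of Act5C, and the nearest start is that of lncRNA:CR45668. The other members if, kirre, mys, rst, up and wupA were not bound, while 2 of 8 on the arms were. Of 6 cell cycle genes Tlk (87.1 at the strongest summit within 1000 bp) and fzr, an activator of the anaphase-promoting complex (45.6, in neither replicate's list nor the conservative one), were bound, and CycD, Myc, Rbf and mus101 were not. On the arms 1 of 9 was bound.

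The lists of yolk, eggshell, sensory receptor and cuticle genes had no bound member on X, where 13.1% of all protein-coding genes were bound. None of 8 yolk and eggshell genes (Cp36, Cp38, Cp7Fa, Cp7Fb, Cp7Fc, Yp1, Yp2 and Yp3), none of 25 chemoreceptor genes and none of 7 cuticle genes (Cpr5C, Cpr11A, Cpr11B, Cpr12A, TwdlX, TwdlY and TwdlZ) was bound on X. On the arms 1 of 108 chemoreceptor genes and 2 of 85 cuticle genes were bound.

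**Figure D5:**
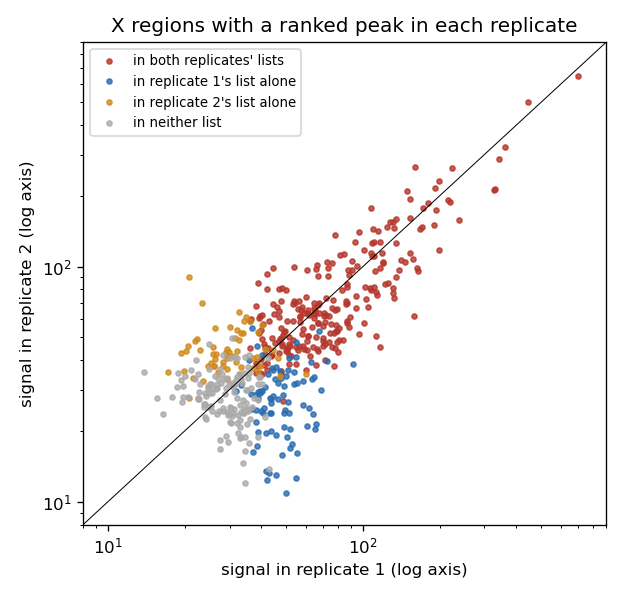
Signal in replicate 1 (x axis, log) against replicate 2 (y axis, log) for the 519 X regions with a ranked peak in each, coloured by the thresholded list they are in. The line marks equal signal. The regions in both lists lie along the line up to Ugalt at 701 and 648, and the regions in neither lie at the low end.

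X regions were in both replicates' lists more often than arm regions. Of 533 X regions 519 had a ranked peak in each replicate, 4 had none in replicate 1 and 10 had none in replicate 2. Over these 519 the replicates' signals had a Spearman rho of 0.67 and a Pearson r of 0.75 on the log2 scale, and 90.2% were within 2-fold. The arms had rho 0.56, r 0.66 and 83.8%. These points share their libraries and were selected for reproducible rank, so the values describe this set only. Both replicates' own thresholded lists held 246 X regions, or 46.2%, and 631 arm regions, or 39.1% (two-sided Fisher's exact test, adjusted p = 0.00891). Replicate 1 alone listed 88 X regions, replicate 2 alone 63, and neither list held 136. Median signals were 132 for X regions in both lists, 73.3 for those in 1 list and 56.8 for those in neither. The conservative list held 421 X regions, or 79.0%, and 1202 arm regions, or 74.6% (Fisher's exact test, adjusted p = 0.0554).

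The sequence at X summits resembled that at arm summits. Windows of 101 bp averaged 67.1% ± 8.35 A+T on X and 67.0% ± 9.53 on the arms (SD over regions). Flanks 1000 bp away averaged 58.1% on X and 57.6% on the arms. A+T content above the common median was found in 44.5% of X windows and 49.1% of arm windows (two-sided Fisher's exact test, adjusted p = 0.0861), a difference that was larger and passed in the conservative list, in each replicate's list, above the median signal and with a longer window.

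Of 10 motifs searched on both strands, 0 differed between X and arm windows after adjustment, and 0 at an unadjusted p under 0.05 (two-sided Fisher's exact test). TATAAA was in 23.5% of X summit windows and 23.5% of arm windows, beside 11.4% of X flank windows and 12.1% of the same length at X start sites. The homeodomain core TAATTA was in 10.5% of X windows and 8.75% of arm windows, beside 5.25% of X flanks and 3.02% of X start sites. ACAAT, the core letters bound by Sox-type proteins, was in 32.5% of X windows and 30.3% of arm windows, beside 28.0% of X flanks and 23.3% of X start sites. CATATG was in 4.50% of X windows and 3.97% of arm windows, beside 4.60% of X flanks. X summit windows averaged 67.1% A+T and X flanks 58.1%, and motif shares were not adjusted for this difference. Whether the contrasts with flanks and start sites exceed what base composition gives was not tested.

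The repeats GAGAGA and CACACA were no more frequent in X summit windows than in X flanks. GAGAGA was in 4.50% of X windows and 2.98% of arm windows, beside 6% of X flanks, and CACACA was in 5.44% of X windows and 5.65% of arm windows, beside 11.9% of X flanks. The promoter motif TATCGATA was in 0.375% of X windows and 1.12% of arm windows, although 5.02% of windows at X start sites hold it. GGTCACAC was in 0.375% of X windows and 0.248% of arm windows, beside 4.20% at X start sites. CAGCTG was in 3.19% of X windows and 3.16% of arm windows, and AAAAAAAA in 9.94% of X windows and 9.18% of arm windows. These shares too were not adjusted for A+T content, so they do not show depletion at summits beyond base composition. A match is a match of letters and not a shown site of binding.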

How the data were processed

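Chromatin immunoprecipitation from 2 biological replicates was analysed from the authors' deposited peak lists in dm6, per the labels. The deposited score rises as the irreproducible discovery rate falls, and thresholded lists hold scores of at least 830. The deposited signal is the authors' enrichment value per peak. Which aligner and peak caller were used is not given. The lists hold no read counts, so depth is unknown. The control libraries named in the labels were not analysed here.

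Rows overlapping by 1 bp were merged. Summits were annotated with Ensembl release 115, whose assembly has the dm6 sequence, without transposable elements. Classes were taken in the order promoter (within 500 bp of a start site), 5' UTR, coding sequence, 3' UTR, other exon, intron and intergenic. Regions on X were compared with those on 2L, 3L and 3R by two-sided Fisher's exact and exact binomial tests (scipy 1.17.1), adjusted by Benjamini and Hochberg over 12 tests, and over 10 for motifs, at a threshold of 0.05. Regions were the units, because an exact test over the 2 within-replicate differences cannot give a p below 0.5; each replicate's values are printed instead. Intervals are exact (Clopper-Pearson) at 95%. Densities per class, tests of position around start sites, densities without the stretches near the centromere, intron hosts and summit-free stretches were added after seeing the data. The functions were tested on simulated data. Named genes were those nearest to the 15 strongest and 3 weakest X regions, listed members, genes with the most summits, the largest clusters, and the strongest regions of the densest bins, beside fne, bin 16 and Gapdh2's replicate values, singled out after seeing values. The members and lists were chosen with earlier results of these data known. Alternatives were the conservative list, each replicate alone, stronger regions, single arms, unmerged rows, and other windows and distances.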

Additional observations from a re-analysis of the deposited data

Results flagged for a closer look

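Outside the assembled X, 21 regions lay on 18 scaffolds of X that are not placed on the chromosome, and 0 on other scaffolds. Their signals ran from 50.5 to 198 with a median of 65.5. They stand out because the replicates differ: 0 of them were in the list of replicate 1 and 20 in that of replicate 2. A ranked peak overlapped 3 of them in replicate 1 and all 21 in replicate 2, and 1 was in the conservative list. They were left out of all counts on X, and the reason for the difference between replicates was not tested.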

How the results depend on the processing

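Of 111 alternatives 80 kept direction and side of the threshold, 15 kept direction but no longer passed, 6 newly passed, 8 reversed and 2 moved a count; those of the class densities, start-site tests and centromere side were added after seeing the data. Differences are X minus arms in percentage points. The intron share passed throughout, at 12.1 with replicate 1 alone and 16.4 with replicate 2 alone. The density ratio was 1.11 against 2L and 1.14 against 3L, and 1.10 without the sparse bins at the centromere side, which did not pass. The promoter difference was -5.34 to -9.28 in single replicates and did not pass in replicate 1 alone. The coding sequence difference did not pass in the conservative list (-0.859), in single replicates (-0.629 to -0.199) or above the median signal (-0.126), and its density ratio of 0 did not pass in the conservative list or single replicates. The intergenic density ratio did not pass in the conservative list (0.741) or single replicates (0.643 to 0.677). The neighbour difference within 20 kb (4.71) did not pass. Differences that did not pass changed sign as follows: the share above the median signal ran from -0.417 to 4.38 in single replicates; bound genes from -0.978 to 0.136 in single replicates, 0.0640 above the median signal and 0.0236 over gene bodies; upstream promoter summits -5.15 to -3.50 in single replicates and -3.75 in the conservative list; summits over 5 kb from a start -3.36 to 2.31 in single replicates. The A+T-rich difference passed in the conservative list (-8.95), single replicates (-10.7 to -7.01), above the median signal (-9.32) and with 100 bp either side (-7.42). The conservative share passed at 50% overlap (4.55). With the longer window 1 motif passed, AAAAAAAA (21.0% on X, 15.1% on the arms). The densest bin held 26 regions above the median signal. The cause of these changes was not tested. X and the arms pair within each replicate, and an exact test over 2 replicates allows no p below 0.5. Depth is unknown, control libraries were not analysed here, and regions are not independent.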

Other observations

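Gapdh2, with a joint signal of 396, was the strongest X region that lacked a ranked peak in replicate 2. Of the ranked rows of X past the limit, 11 were missing from the thresholded list.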
